A study of Sus scrofa with 4 samples.

Results

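The lysosomal cathepsins of the pig thymus were compared between IL2RG KO and WT animals. The members were fixed as 8 genes (CTSB, CTSC, CTSD, CTSH, CTSK, CTSL, CTSS and CTSZ), and every array probe whose RefSeq transcript belongs to 1 of them was used. By symbol, 10 probes were found for 5 of the genes (CTSB, CTSD, CTSH, CTSK and CTSZ). The remaining 10 probes target a transcript that the gene table names CTSV and for which it lists CTSL as a synonym, so that they are called CTSV here and their gene, CTSL or the related CTSV, is uncertain. The table's own CTSL gene, CTSC and CTSS had no named probe. With CTSV counted in place of CTSL, 6 of the 8 genes are described, by 20 of the 43597 probes used. All 20 were well above background on all 4 arrays.

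Thymus RNA of Minnesota miniature swine was hybridised to 4 one-colour porcine arrays of Agilent, 2 for each genotype. The KO animals carried the monoallelic mutation mIL2RG+/Δ69-368, labelled IL2RG+/-, which was made with TALEN in donor cells and brought into pigs by somatic cell nuclear transfer. KO thymus came from the 2 cloned animals that had a rudimentary one, so the KO arrays describe that remnant. For the arrayed animals, the source of the WT pigs and the age and sex of both groups are not given in the sources used here. The labels tie no array to an animal, and no source used here says that the WT arrays came from separate animals, so p-values may measure only the spread between these samples. KO replicate 1 shared a slide with WT replicate 2 (slide 1), and KO replicate 2 shared one with WT replicate 1 (slide 2).

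Cathepsins are proteases of the lysosome, the acidic compartment in which cells digest what they take up. CTSB, CTSC, CTSH, CTSK, CTSL, CTSS, CTSV and CTSZ are cysteine proteases, whereas CTSD is an aspartic protease. They are made as inactive precursors, sorted with the help of mannose 6-phosphate and activated at acid pH. In the thymus they serve macrophages, which clear dying thymocytes, and the cells that present peptides on MHC class II, in which cathepsins S and L trim the invariant chain and cut proteins into the peptides that guide thymocyte selection.

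Values are log2 processed signals minus the 75th percentile of the array, so that 0 is the signal of a probe at that percentile. A probe was called different when limma gave a Benjamini-Hochberg adjusted p under 0.05 over the 31959 probes tested and the fold change was at least 2. The brightest probe of a gene, by its mean over the 4 arrays, stands for the gene. A difference is always KO minus WT. Levels of different probes cannot be set against each other, since probes differ in how well they bind.

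The targeted gene was called lower in KO. IL2RG read -3.14 and -3.27 in KO against -0.12 and 0.53 in WT (log2 fold change -3.41, SE 0.27, adjusted p = 0.00255 by limma). Its second probe was also called lower. The genotypes differed widely. Of all tested probes 21% were called higher in KO and 13% lower, and the median log2 fold change was -0.05. The higher calls made up 61.8% of all calls, or 47.7% when arrays were scaled to their medians, which moved the median of all probes to -0.32. Of the thymocyte markers, 12 of 12 tested were called lower, with a summed linear level of 29.9 and 29.0 in KO against 172 and 243 in WT. In a whole tissue, fewer cells of a type and less RNA per cell cannot be told apart. The same holds for IL2RG, so its lower signal is no separate check of the genotype.

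Most cathepsins were higher in KO thymus. Of the 20 probes, 17 were called higher and none lower by limma, beside a background of 21% of all probes called higher. The lower direction also held no probe at an unadjusted p under 0.05 in limma, while the methods' t-test, unpaired and on the same values, gave 7 higher and 1 lower at that level. By gene, 4 of 6 were called higher (CTSB, CTSH, CTSV and CTSZ) and none lower, beside 25.2% higher and 12.5% lower among the 2702 named genes tested. Their folds lay close together, from 2.14 to 2.35, whereas CTSK was 1.68-fold higher and CTSD was not called in either direction. The median log2 fold change of the 6 genes was 1.14, beside 0.0025 over the named genes. In 18 of the 20 probes both KO arrays lay above both WT arrays, beside 37.9% of all probes.

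These calls rested on few arrays and on the fold threshold. With dim probes kept in the fit, 14 probes and all 4 genes were called. Without KO replicate 1, 3 cathepsin probes were called higher (background 13.4% of all probes), and without KO replicate 2 none was (12.6%). Without WT replicate 1 the number was 17 (23.7%) and without WT replicate 2 it was 7 (20.8%). The number of genes was 0, 0, 4 and 3 in the same order. With arrays scaled to their medians 4 probes (18.2% of all probes) and no gene passed, because CTSB, CTSH, CTSV and CTSZ kept an adjusted p under 0.05 but fell below 2-fold, at log2 fold changes of 0.96, 0.97, 0.91 and 0.83. The methods' t-test called no cathepsin, beside 2.15% of all probes higher after Benjamini-Hochberg adjustment and 0% after the Bonferroni correction.

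**Figure D1:**
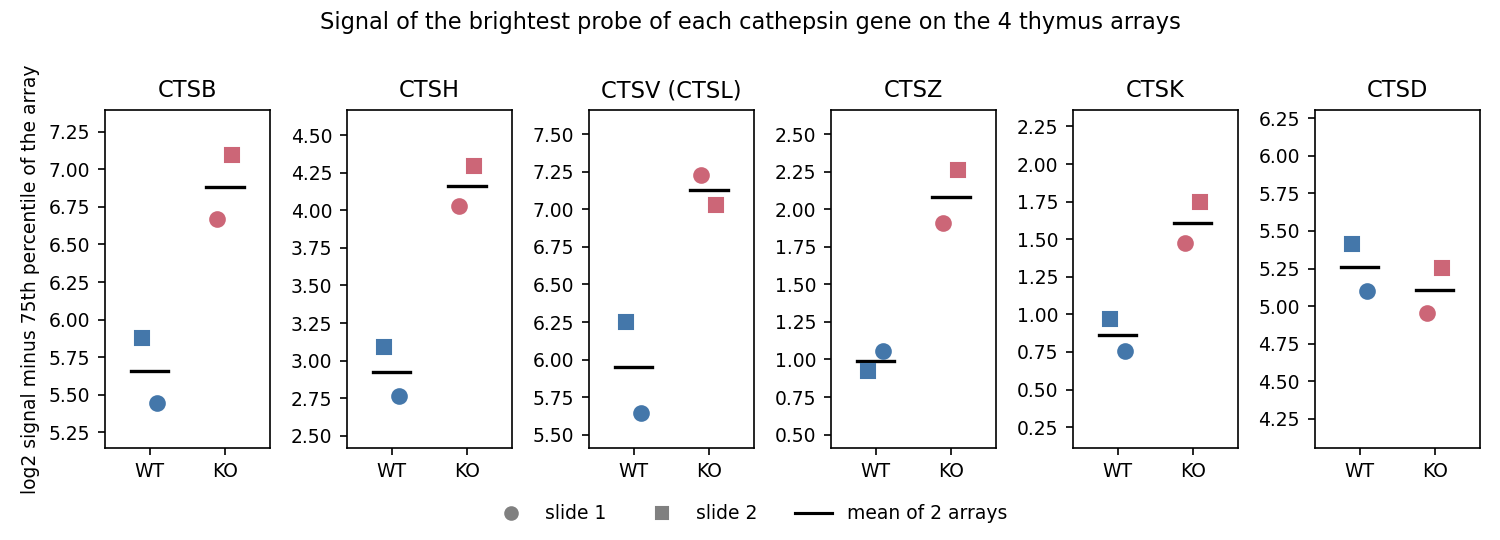
Normalised log2 signal (vertical axis, log2 signal minus the 75th percentile of the array) of the brightest probe of each of the 6 cathepsin genes, with 1 point per array, the slide given by the symbol and the mean of each genotype as a line. Every panel spans the same range; both KO arrays lie above both WT arrays for CTSB, CTSH, CTSV, CTSZ and CTSK, and the genotypes overlap for CTSD, whose small difference changes sign under quantile normalization.

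CTSB (NM_001097458), a cysteine protease of broad specificity with both endopeptidase and carboxypeptidase activity, was measured by 4 probes. Its brightest probe read 6.67 and 7.09 in KO and 5.87 and 5.45 in WT. Both KO arrays were above both WT arrays, by more than the gap between the arrays of either genotype. The log2 fold change was 1.22 (SE 0.25, adjusted p = 0.0198 by limma), or 2.33-fold, with KO at 6.88 ± 0.30 (SD, n = 2) against 5.66 ± 0.30 (SD, n = 2) for WT. Within the slides the differences were almost equal, at 1.23 on slide 1 and 1.22 on slide 2, and with the slide as a block the adjusted p was 0.0123. Before any scaling the processed signals were 77280 and 93977 in KO against 36225 and 30142 in WT, so the order of the arrays did not depend on the scaling. The 4 probes gave log2 fold changes of 1.18 to 1.35, and all were called.

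CTSH (NM_213929), an aminopeptidase among the cysteine cathepsins, had 2 probes. The brighter read 4.03 and 4.30 in KO and 3.09 and 2.76 in WT, and the genotypes again did not overlap. Its log2 fold change was 1.23 (SE 0.21, adjusted p = 0.0117 by limma), or 2.35-fold. The within-slide differences were 1.26 and 1.21, and the second probe, at 1.27, was also called. The processed signals were 12349 and 13526 in KO against 5262 and 4694 in WT.

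CTSV, the gene with the listed synonym CTSL (NM_213892), is in its L form the main endopeptidase of invariant chain in the cortical epithelium of the mouse thymus. It had 10 probes. The brightest read 7.23 and 7.03 in KO and 6.25 and 5.65 in WT. The KO arrays stood close together above both WT arrays, and the WT arrays stood further apart. The log2 fold change was 1.18 (SE 0.26, adjusted p = 0.0238 by limma), or 2.27-fold, and all 10 probes were called, with log2 fold changes of 1.09 to 1.31, or 7 of them with dim probes kept in the fit. These probes target the same transcript and are no replicates of each other. The slides differed for this gene more than for CTSB or CTSH. On the log2 scale the brightest probe differed by 1.58 on slide 1 and by 0.78 on slide 2, and over the 10 probes the differences were 1.52 to 1.70 on slide 1 and 0.64 to 0.96 on slide 2. WT replicate 1 lay above WT replicate 2 by 0.46 to 0.85 in all 10. Without WT replicate 2 the fold change was 0.88 (adjusted p = 0.0248), below the fold threshold, and with the slide as a block 9 of 10 probes were called (21.7% of all probes). Without the 10 probes, 7 of 10 cathepsin probes and 3 of 5 genes were called higher.

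CTSZ (NM_001123104), also known as cathepsin X, is a carboxypeptidase that is abundant in monocytes and macrophages. Its single probe read 1.91 and 2.26 in KO and 0.92 and 1.06 in WT, with no overlap. The log2 fold change was 1.09 (SE 0.20, adjusted p = 0.0140 by limma), or 2.14-fold. The difference was 0.85 on slide 1 and 1.34 on slide 2, so that it passed 2-fold on slide 2 alone. In contrast to CTSV, the larger difference was on slide 2.

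CTSK (NM_214302), the collagen-degrading cathepsin of osteoclasts, lies beside CTSS in the gene table, and CTSS had no named probe. CTSK read 1.47 and 1.74 in KO and 0.97 and 0.76 in WT. Both KO arrays were above both WT arrays, but less far than for the 4 genes above. The log2 fold change was 0.74 (SE 0.19, adjusted p = 0.0336 by limma), or 1.68-fold, with 0.72 on slide 1 and 0.77 on slide 2. CTSK thus passed the adjusted p and missed 2-fold, and it was not called. The adjusted p of CTSK was no longer under 0.05 with scaling to the median (0.0863, log2 fold change 0.48), the replicate block (0.0865), dim probes kept (0.0614), the methods' t-test (0.115 after Benjamini-Hochberg adjustment), or without KO replicate 1 (0.122), KO replicate 2 (0.240) or WT replicate 2 (0.0651), by limma in all settings but the methods' t-test. Of all tested probes 25.4% passed the adjusted p in this direction without a fold threshold.

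CTSD (NM_001037721), the aspartic protease that is abundant in lysosomes of most cells, was the exception. Its brighter probe read 4.96 and 5.25 in KO and 5.41 and 5.10 in WT, and the genotypes overlapped. The log2 fold change was -0.15 (SE 0.21, adjusted p = 0.583 by limma), with -0.14 on slide 1 and -0.16 on slide 2. The processed signals, 23553 and 26257 in KO and 26327 and 23734 in WT, covered the same range in both genotypes. The second probe read 2.33 and 2.34 in KO and 2.50 and 2.55 in WT, with a log2 fold change of -0.19 (SE 0.15, adjusted p = 0.353). The small difference of the brighter probe changed sign under quantile normalization (0.094), normexp background correction (0.076), the deposited log2 values (0.092) and without WT replicate 1 (0.0044), and no setting called CTSD.

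**Figure D2:**
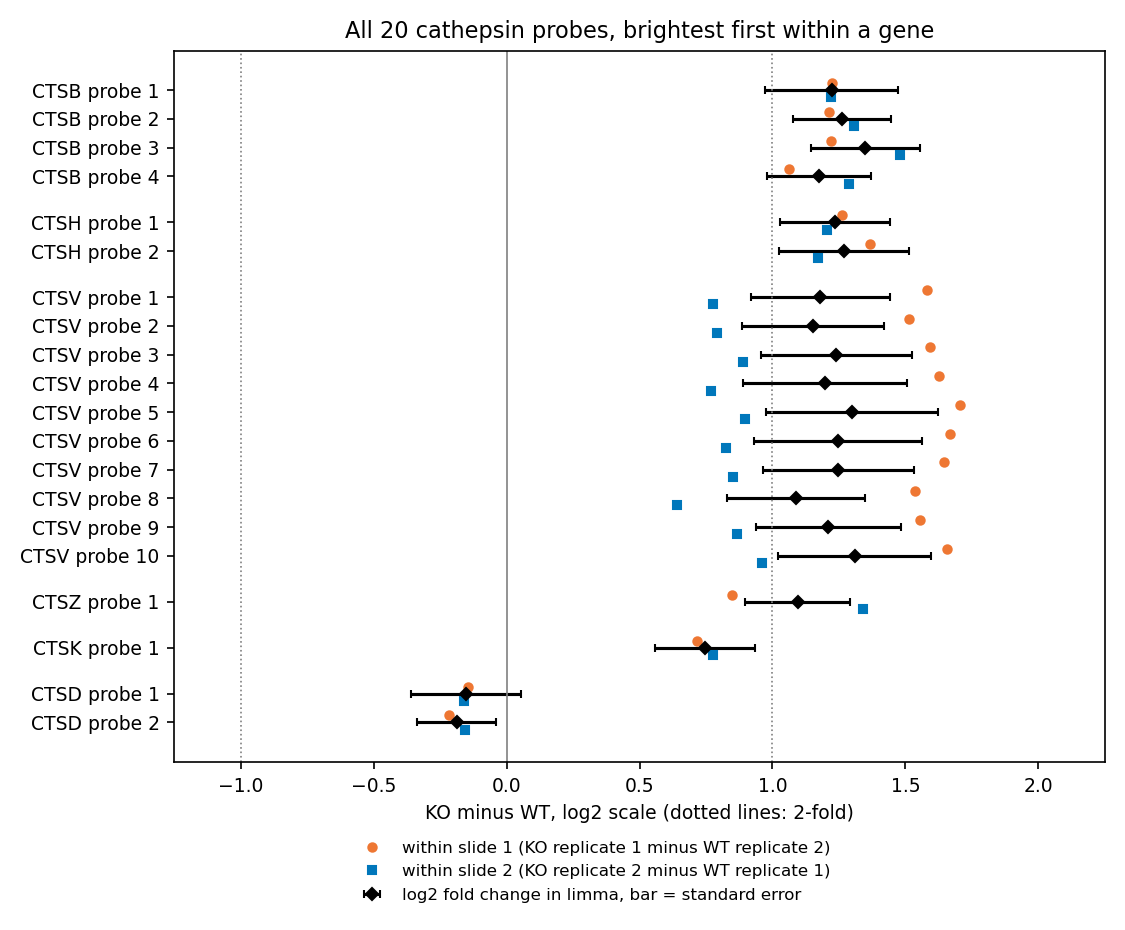
Log2 fold change (KO minus WT, horizontal axis) of each of the 20 cathepsin probes, as the limma estimate with its standard error and as the difference within each slide; dotted lines mark 2-fold. The 10 CTSV probes differ by 1.52 to 1.70 on slide 1 and by 0.64 to 0.96 on slide 2, the CTSZ probe the other way round, and both CTSD probes lie just below 0, where the brighter one changes sign under quantile normalization.

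A ratio between 2 genes on the same array needs no scaling between arrays, and CTSD was taken as the partner after its values were seen. In KO the log2 ratio of CTSB to CTSD was 1.71 and 1.84, against 0.46 and 0.34 in WT. The arrays of a genotype agreed within 0.13, and the ratio was 2.59-fold higher in KO. The ratio of CTSH to CTSD was 2.61-fold higher, that of CTSV 2.52-fold, that of CTSZ 2.37-fold and that of CTSK 1.86-fold, each with both KO arrays above both WT arrays. The exact permutation p was 0.333 (two-sided, n = 2 per genotype) for each of the 5 ratios, the smallest that 2 against 2 arrays allow. Since CTSD was chosen for its values, the ratios restate the differences above on a scale free of normalization and are no separate evidence.

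Other cathepsins and the inhibitors were sparsely covered. Of 6 further cathepsins CTSA alone had a named probe. CTSA, a serine carboxypeptidase that protects beta-galactosidase and neuraminidase, read 2.40 and 3.10 in KO and 3.91 and 4.10 in WT on its brighter probe, and was called lower (log2 fold change -1.25, SE 0.29, adjusted p = 0.0260 by limma). Its second probe had the opposite sign, at 0.88 (SE 0.42, adjusted p = 0.148), so that the direction of CTSA depended on the probe. CST3, cystatin C, the secreted inhibitor of cysteine cathepsins, read 7.39 and 7.47 in KO and 6.12 and 5.73 in WT. It was called higher, with a log2 fold change of 1.50 (SE 0.20, adjusted p = 0.00696 by limma). CSTB, the cystatin of the cytosol, had a log2 fold change of 0.50 (adjusted p = 0.0626) and was not called. The 5 other listed inhibitors had no named probe. Against CST3 on the same array, the ratio of each of CTSB, CTSH, CTSK, CTSV and CTSZ was lower in KO, with log2 differences of -0.75 (CTSK) to -0.26 (CTSH). Both KO arrays lay below both WT arrays in all 5 ratios, with the CTSZ ratio at -0.0019 within slide 2. The two-sided exact permutation p was again 0.333, the smallest possible. The log2 fold change of CST3 was larger than that of each of the 5 genes, so these signs follow from it and are no separate evidence. That of CSTB was smaller than each of the 5, and ratios to CSTB were not taken.

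Of 30 listed hydrolases and activators 8 were tested, of which limma called 2 higher and none lower, a share near the 25.2% of named genes called higher. Their median log2 fold change was 0.23, and -0.04 with arrays scaled to their medians, which left 1 of the 8 called. ARSA, which removes sulfate from sulfatide, had a log2 fold change of 1.34 (adjusted p = 0.0113). PSAP, the precursor of the saposins, was 2.14-fold higher (adjusted p = 0.0117). The second probes of ARSA and PSAP, at log2 fold changes of 0.86 and 0.93, were not called. The other 6 were not called, with log2 fold changes of ACP5 at -0.22, GALNS at -0.43, GUSB at -0.09, NEU1 at -0.40, HEXA at 0.55 and LIPA at 0.87. LIPA, the acid lipase, passed the adjusted p (0.0239) without reaching 2-fold, as CTSK did.

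Of 17 listed proteins of the lysosomal membrane 6 were tested, and SCARB2, an integral protein of the lysosomal membrane, was called higher at a log2 fold change of 1.74 (adjusted p = 0.0176), on all 6 of its probes. NPC2, a soluble cholesterol carrier that this list holds beside NPC1, had a log2 fold change of 0.94 (adjusted p = 0.0250), below 2-fold, and LAMP1 (0.30), LAMP2 (0.34) and NPC1 (0.06) were not called. SLC11A1, a metal transporter of phagosomes, had a log2 fold change of 0.48 on its brighter probe and was not called, whereas its second probe was called higher at 2.39. None of the 4 tested subunits of the vacuolar proton pump, which acidifies the lysosome, was called in either direction. ATP6V1A had a log2 fold change of 0.72 (adjusted p = 0.0349 by limma, below 2-fold), and ATP6V0E1, ATP6V1G1 and ATP6V1H were at 0.12, -0.04 and -0.25. The median log2 fold change of the 4 was 0.04 and turned to -0.22 with scaling to the median. Of 8 listed genes for the sorting of lysosomal enzymes IGF2R, a receptor of mannose 6-phosphate, alone was tested. Its log2 fold change was 0.0041 (adjusted p = 0.986), and -0.26 with scaling to the median, and its 3 other probes, at 0.47 to 0.64, were not called either.

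Transcription factors of the lysosome and of macrophages had 2 tested genes of 6 listed, both called higher, beside 25.2% of named genes. MITF, of the same family as TFEB, read 1.27 and 1.24 in KO and -0.37 and -0.48 in WT, with a log2 fold change of 1.68 (SE 0.15, adjusted p = 0.00321 by limma). SPI1, which encodes PU.1 of the myeloid lineage, had a log2 fold change of 1.70 (adjusted p = 0.00476). Its single probe was weak, below the median signal of each array but well above background on all 4. The processed signals were 84.3 and 75.2 in KO against 23.6 and 20.7 in WT. TFEB, TFE3, TFEC and CIITA had no named probe.

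All 10 listed genes of the MHC class II pathway, in which cathepsins S and L act, were tested and called higher, beside 25.2% of named genes, and 8 were called with scaling to the median and 9 with the replicate block. Their log2 fold changes ranged from 1.15 for IFI30 (adjusted p = 0.0469 by limma), the thiol reductase of lysosomes, to 2.20 for CD74 (adjusted p = 0.00340), the invariant chain itself. The second probe of IFI30, at 0.96, was not called. CD74 read 5.49 and 5.50 in KO and 3.51 and 3.08 in WT. SLA-DRA had a log2 fold change of 1.82 (adjusted p = 0.00838), and it was 1.89 for SLA-DMA, a subunit of the peptide exchange factor (adjusted p = 0.00779). The median log2 fold change of the 10 was 1.85, beside 1.14 for the cathepsins.

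The substrates of cathepsins without a named probe or without a call are given for reference. Cathepsin C activates serine proteases of cytotoxic granules, of which 5 of 10 listed were tested and 4 were called higher, or 3 with scaling to the median, beside 25.2% of named genes. GZMK had a log2 fold change of 5.28 (adjusted p = 0.00205 by limma) and GZMA of 4.46 (adjusted p = 0.00205), where GZMA was well above background on both KO arrays and 1 of the 2 WT arrays, so that its fold is poorly measured on the WT side. GZMM and GZMH had log2 fold changes of 1.30 and 1.19, whereas GZMB, at -0.76 (adjusted p = 0.112), was not called. Of the matrix proteins that cathepsin K cuts, COL1A2 was called higher at a log2 fold change of 1.40 (adjusted p = 0.0317) and SPARC, at 1.12 (adjusted p = 0.0858), was not, although 2 of its 7 probes were called higher. COL1A2 was not called with the replicate number as a block.

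**Figure D3:**
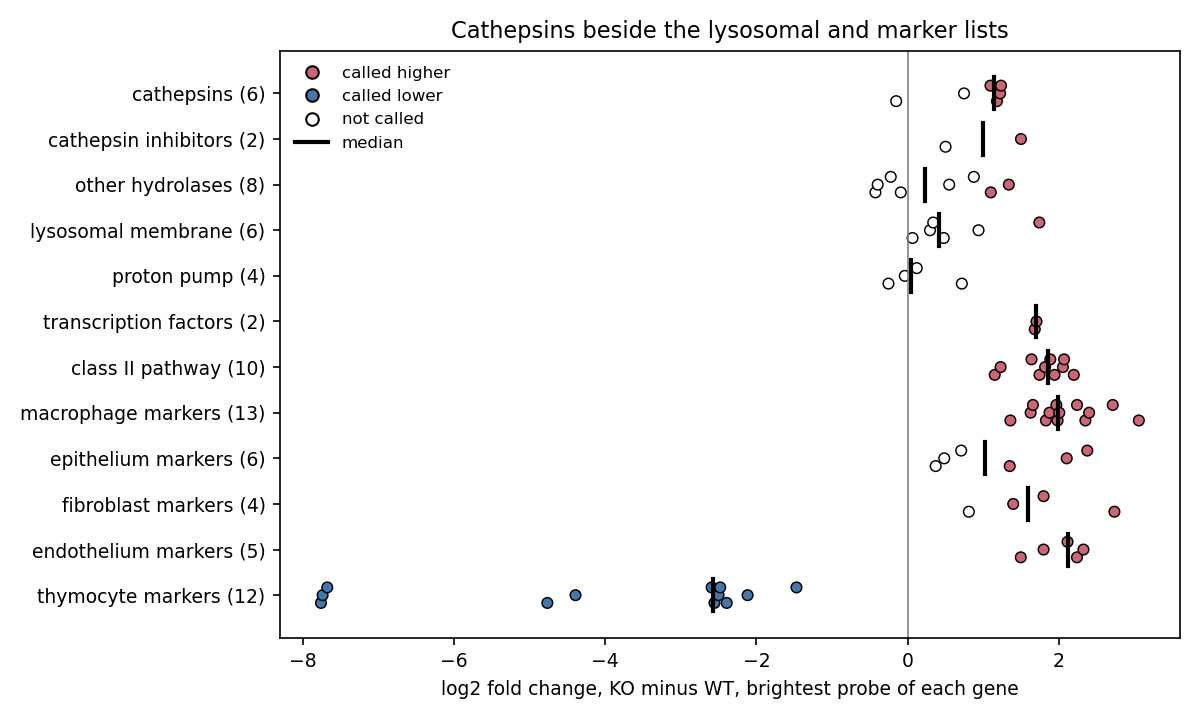
Log2 fold change (KO minus WT, horizontal axis) of the brightest probe of each tested gene, in rows for the 6 cathepsin genes and for the lists named at the left with their number of tested genes; filled points were called and the bar is the median. The cathepsin median of 1.14 lies between that of the other hydrolases (0.23) and those of the class II pathway (1.85) and the macrophage markers (1.98), the thymocyte markers lie apart at a median of -2.57, and the medians of the other hydrolases and of the proton pump (0.04) turn negative with scaling to the median.

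Markers of several cell types moved with the cathepsins, beside the 25.2% of named genes called higher and 12.5% called lower. All 13 tested of 19 listed macrophage markers were called higher, at log2 fold changes of 1.36 to 3.06, with a summed linear level of 271 and 348 in KO against 77.5 and 64.1 in WT. The slide as a block and scaling to the median each left 12 called. The listed macrophage genes CD68, CSF1R, MARCO, MSR1, ADGRE1 and MERTK had no named probe. All 5 tested endothelium markers, 3 of 4 fibroblast markers, 3 of 6 epithelium markers and 3 of 6 fat cell markers were called higher as well. The other tested epithelium markers, CCL25, DLL4 and EPCAM, were not called, at log2 fold changes of 0.48, 0.71 and 0.37. The summed epithelium level was 280 and 261 in KO against 105 and 74.4 in WT, with FOXN1, PSMB11 and AIRE among the genes without a named probe. Such sums follow their brightest probes, here KRT8, which read 7.62 and 7.56 in KO and 5.66 and 4.77 in WT. The fibroblast sum was 116 and 177 against 63.5 and 27.4, the endothelium sum 17.8 and 19.5 against 5.77 and 3.37, and the fat cell sum 40.3 and 118 against 17.7 and 9.65. Of the dendritic cell markers 1 of 3 tested (XCR1) was called higher. Of the 3 tested osteoclast markers none was higher, MMP9 was called lower at a log2 fold change of -1.73 (adjusted p = 0.0174), and ACP5 and DCSTAMP were not called. All 3 tested B cell markers were called lower, and of the NK and cytotoxic markers 2 of 3 were called higher. The 3 neutrophil markers were not called, with a sum of 80.1 in WT replicate 1 against 6.33 in WT replicate 2, 1.30 in KO replicate 1 and 5.15 in KO replicate 2. The part of these cell types in the cathepsin differences was not tested.

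The 5 genes outside the members whose profile over the 4 arrays was closest to the mean profile of the 6 cathepsins, out of 2696 named genes, were LIPA, BCL2A1, NPC2, SCARB1 and STAT3, in that order. The measure was the Euclidean distance between profiles centred on their own mean, which ran from 0.0427 for LIPA to 0.100 for STAT3. On that centred scale the cathepsins averaged 0.33 and 0.56 on the KO arrays and -0.30 and -0.59 on the WT arrays. KO replicate 2 was the highest and WT replicate 2 the lowest. The 5 genes had log2 fold changes of 0.87, 0.92, 0.94, 0.84 and 0.82 in that order. LIPA and NPC2 also belong to the lysosome lists above. With 4 arrays such a likeness is a description.

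**Figure D4:**
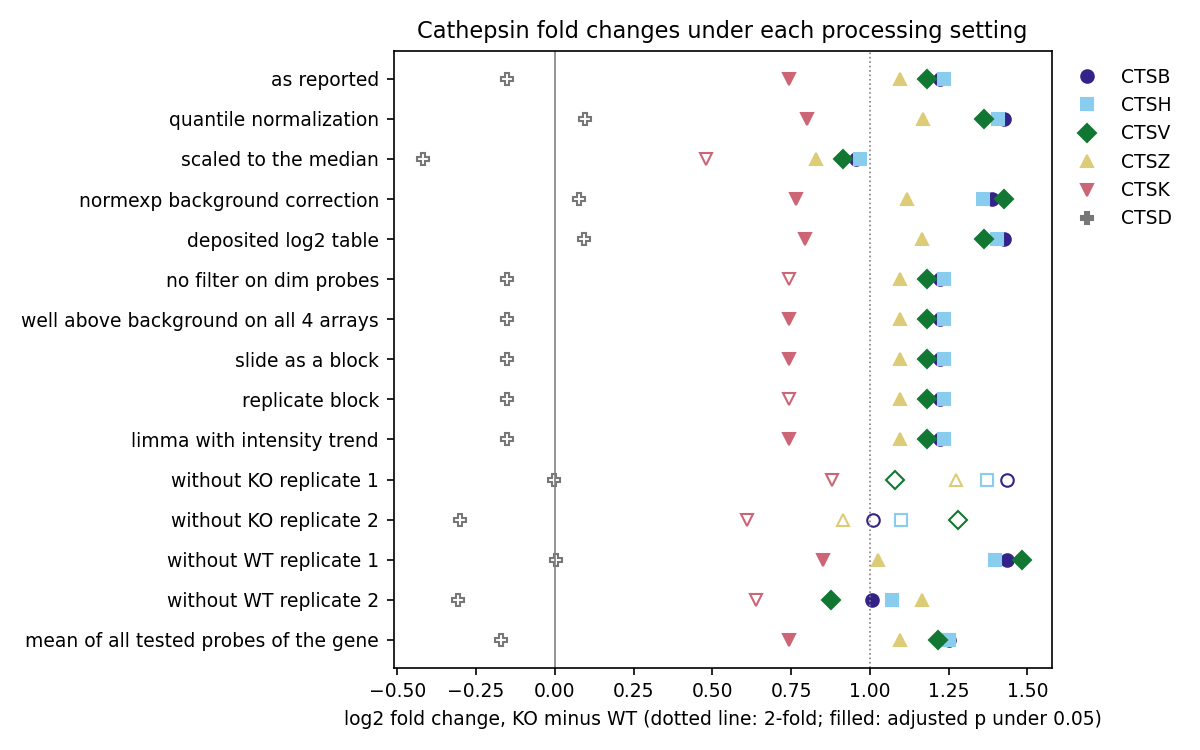
Log2 fold change (KO minus WT, horizontal axis) of the brightest probe of each cathepsin gene under the processing settings shown (rows), filled where the adjusted p was under 0.05. The methods' t-test, in which no gene had an adjusted p under 0.05, and the fold thresholds are not shown. The last row takes the mean of all tested probes of a gene in place of the brightest. CTSB, CTSH, CTSV and CTSZ stay between 0.83 and 1.48 and are all open without KO replicate 1 or KO replicate 2, CTSK stays between 0.48 and 0.88, and CTSD lies on both sides of 0.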

How the data were processed

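The intensity of each spot was deposited by the authors as Feature Extraction output of Agilent (11.0.1.1 in the submitters' processing notes), after background subtraction and without normalization between arrays. The labels and the single channel of the files name Cy3, whereas the methods speak of Cy-3 and Cy-5. A deposited log2 table of the authors holds quantile normalized values of 27970 probes used here (Pearson's r with the scanner values at least 0.9998) and served as an alternative. Spleen arrays were not analysed here.

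Control spots and outlier spots were left out, the log2 signal was scaled to the 75th percentile of the array, spots of a probe were averaged, and the 31959 probes that both arrays of a genotype marked as well above background were fitted with lmFit and eBayes of limma 3.58.1 (R 4.3.3). The two-sided exact permutation test has 6 permutations. No spot was saturated, and the number of arrays limits the precision. Well above background, on every spot kept, were 73.5% to 74.5% of probes in KO and 67.9% to 68.1% in WT. The KO arrays differed by 2-fold in 757 tested probes and the WT arrays in 2810. Tables and plots used Python 3.11.15, pandas 2.3.3 and matplotlib 3.10.9. The fit was tested on simulated data.

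Of the 43603 probes, 6684 (15.3%) were named through their RefSeq accession, for 3020 genes of the Sscrofa11.1 table. The build of the array design is not given in the sources used here, so no coordinates are given. A gene without a named probe may still be on the array. Probe sequences, proteins and promoter motifs were not analysed here. Some listed genes are left unreported, and list counts leave them out.

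The members and gene lists were chosen with earlier results of these data known. Named are all members, the listed genes with the largest rises and falls or a direct role beside the cathepsins, and the 5 genes with the nearest profile. Alternatives were quantile and median scaling, normexp with an offset of 50 (on median intensities, then quantile), the deposited log2 values, other filters on dim probes, a block for slide or for replicate number, the methods' t-test with Bonferroni or Benjamini-Hochberg adjustment, an intensity trend, other fold thresholds, 1 array left out, and the mean of a gene's probes. Leaving out CTSV was chosen after seeing the data, as was reading the slide block as a crossed pairing.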

Additional observations from a re-analysis of the deposited data

How the results depend on the processing

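Of the 20 cathepsin probes, 17 were called higher. The count was 14 with dim probes kept, 4 with scaling to the median, 0 with the methods' t-test after Bonferroni and 0 after Benjamini-Hochberg adjustment, 0 at a threshold of 4-fold, 7 without CTSV, and 0 to 17 with each array left out in turn. Of the 6 genes, 4 were called higher. That count was 0 with scaling to the median, 0 with either adjustment of the methods' t-test, 0 at 4-fold, and 0 to 4 with each array left out. The fold changes of CTSB, CTSH, CTSV, CTSZ and CTSK kept their sign under all 18 alternatives. Of these, the filters on dim probes, the blocks, the methods' t-test, the intensity trend and the fold thresholds leave the estimate unchanged. The sign could not change there. CTSD reversed to 0.094 with quantile normalization, 0.076 with normexp and 0.092 with the deposited log2 values, and ran from -0.31 to 0.0044 with each array left out. Without KO replicate 1 the adjusted p of the 4 called genes was 0.0563 to 0.126 and without KO replicate 2 it was 0.0916 to 0.120 by limma.

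Scaling to the median lowered the higher calls among other hydrolases to 1, dendritic markers to 0, NK and cytotoxic markers to 1, class II genes to 8, granule proteases to 3 and macrophage markers to 12. Quantile normalization raised those among membrane proteins to 2. The slide as a block gave 2 matrix substrates higher and 3 neutrophil markers lower, and the replicate block gave 0 matrix substrates and 1 fibroblast marker higher. The deviations of KO replicate 1 from its group mean correlated at -0.29 with those of WT replicate 1. With those of WT replicate 2, on the same slide, the correlation was 0.29. With 2 arrays per genotype these values are mirror images, so they cannot show whether the replicate numbers pair the samples. The replicate block called 6713 probes higher and 4060 lower, with 17 cathepsin probes and 4 genes unchanged in number. The crossed pairing is the same fit as the slide as a block and called 6929 higher and 4223 lower. The 2 arrays per genotype limit the precision, and all cathepsin probes were well above background.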
